A study of Mus musculus with 6 samples.

Results

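The chemokine ligands were described in immortalized mouse embryo fibroblasts (iMEF) that carried, lacked or regained Nrdc, the gene of the metalloendopeptidase nardilysin. The members were the genes whose symbol is Ccl or Cxcl followed by a number, with or without 1 more letter, together with Cx3cl1 and Xcl1. This rule was met by 38 of the 22369 protein-coding genes deposited. They comprised 24 Ccl genes, 12 Cxcl genes, Cx3cl1 and Xcl1, and Ccl25 was listed under 2 identifiers.

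Chemokines are small secreted proteins that attract leukocytes by binding G protein-coupled receptors. CC and CXC chemokines are named after the spacing of their first cysteines, and the CXC ligands with a Glu-Leu-Arg motif before those cysteines attract neutrophils through Cxcr2. Fibroblasts are known producers of Cxcl12, which retains hematopoietic and other cells in tissues, and of Ccl2 and Cxcl1, which are induced during inflammation through NF-kB.

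Poly(A) RNA of 3 lines with C57BL/6 as the labelled strain was sequenced, with 2 libraries per line. Nrdc-/-WT iMEF were Nrdc-/- cells infected with a lentivirus for wild-type Nrdc, Nrdc-/- iMEF came from Nrdc-deficient mice, and Nrdc+/+ iMEF came from wild-type mice. All lines were immortalized and were growing asynchronously. No label names Nrdc-/- cells infected with an empty lentivirus. Infection and regained Nrdc therefore cannot be told apart in Nrdc-/-WT v.s. Nrdc-/- iMEF. Each genotype was represented by 1 line, so that a difference between genotypes and a difference between lines cannot be told apart, and the labels leave unstated whether both libraries of a line were grown apart. The p-values therefore measure only the spread between these libraries, which may be technical.

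The libraries held between 16385565 and 19764315 reads over the listed genes. Nrdc, listed as Nrd1, averaged 5.65 ± 0.35 RPKM in Nrdc-/-WT iMEF, 1.52 ± 0.02 RPKM in Nrdc-/- iMEF and 28.4 ± 0.7 RPKM in Nrdc+/+ iMEF (SD, n = 2 each), RPKM being read counts scaled to gene length and library size. These are RNA levels, while by immunoblotting the authors reported similar Nrdc protein in Nrdc-/-WT and Nrdc+/+ iMEF. Of 10 fibroblast markers, 8 reached the level needed for testing, and Thy1 and Fap stayed below it with at most 18 reads in a library. In Nrdc-/- v.s. Nrdc+/+ iMEF, Col3a1, Pdgfra and Pdgfrb were called higher and Fbln2 lower, and Col1a1, Col1a2, Vim and Fn1 were not called. Pdgfra was at 55.3 and 53.2 RPKM in Nrdc-/-WT iMEF, 55.4 and 51.3 RPKM in Nrdc-/- iMEF, and 5.02 and 4.38 RPKM in Nrdc+/+ iMEF. Of the 12 genes of the leukocyte list, Ptprc, Emr1, Tyrobp and Cd3e had at most 2 reads in a library, and 3 had 0 reads in all libraries. Csf1r, the receptor of a macrophage growth factor, had 47 and 47 reads in Nrdc-/-WT iMEF, 4 and 0 reads in Nrdc-/- iMEF, and 4 and 4 reads in Nrdc+/+ iMEF. Its part in the differences between ligands was not tested. The leukocyte list summed to 2.03 to 2.46 RPKM in Nrdc-/-WT iMEF, 4.49 to 4.55 RPKM in Nrdc-/- iMEF and 2.65 to 3.01 RPKM in Nrdc+/+ iMEF, of which Lyz2 and Cd68 were the 2 genes tested. Both were called in each of the 3 comparisons. Lyz2 had 14 and 8 reads in Nrdc-/-WT iMEF, 74 and 85 in Nrdc-/- iMEF, and 0 and 0 in Nrdc+/+ iMEF. Cd68 had 28 and 18, 10 and 4, and 51 and 64 reads in the same order of lines. Itgam, not tested, had 26 to 42 reads in each library. The endothelial list of 6 genes summed to 0.10 to 0.21 RPKM in Nrdc-/-WT iMEF, 0.10 to 0.11 RPKM in Nrdc-/- iMEF and 1.35 to 1.71 RPKM in Nrdc+/+ iMEF, mostly Kdr.

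The 3 lines differed in which ligands they expressed. Summed over the members, chemokine mRNA amounted to 142 and 135 RPKM in Nrdc-/-WT iMEF, 58.9 and 59.4 RPKM in Nrdc-/- iMEF, and 249 and 280 RPKM in Nrdc+/+ iMEF. Cxcl12 and Ccl2 together made up 21.4% and 23.0% of this sum in Nrdc-/-WT iMEF, 24.2% and 22.8% in Nrdc-/- iMEF, and 89.3% and 89.5% in Nrdc+/+ iMEF. Cx3cl1 had the highest share in both lines of Nrdc-/- origin, with 29.3% and 31.1% in Nrdc-/-WT iMEF and 35.4% and 37.8% in Nrdc-/- iMEF, against 1.24% and 1.53% in Nrdc+/+ iMEF. The ranking by RPKM thus separated Nrdc+/+ iMEF from both other lines. In these bulk libraries, fewer cells that express a gene and less of its RNA per cell cannot be told apart.

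**Figure D1:**
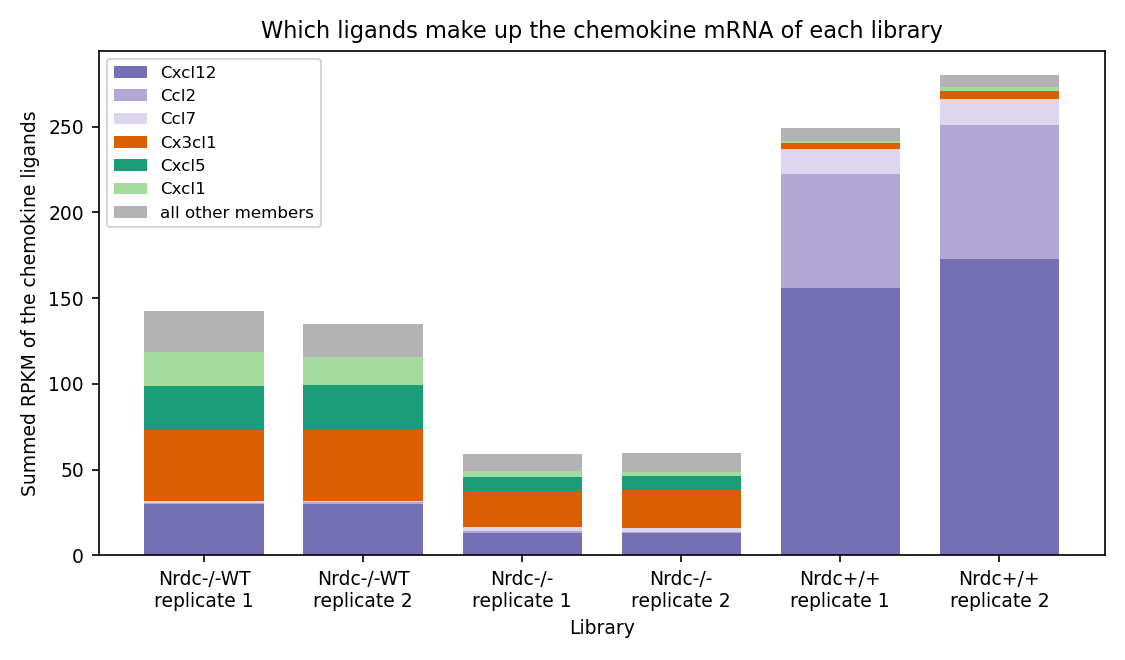
Summed RPKM of the 38 chemokine ligands in each library (bars, 1 per library), divided into the 6 most abundant members and the others. Cxcl12, Ccl2 and Ccl7 fill most of both Nrdc+/+ bars, while Cx3cl1, Cxcl5 and Cxcl12 fill most of the Nrdc-/-WT and Nrdc-/- bars.

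Only 15 of the 38 members averaged at least 0.5 RPKM over the 6 libraries and were tested, namely 8 Ccl genes, 6 Cxcl genes and Cx3cl1. All 15 averaged at least 0.5 RPKM in Nrdc-/-WT iMEF, 13 did so in Nrdc-/- iMEF and 11 in Nrdc+/+ iMEF, so Cxcl5, Ccl17, Cxcl15 and Cxcl16 passed through the lines where they were high. A gene was called when the adjusted p of limma over 11598 genes was under 0.05 and the fold was at least 1.3. In Nrdc-/- v.s. Nrdc+/+ iMEF, 4 members were higher beside 32.0% of all genes tested, 3 were lower beside 30.2%, and 8 were not called. In Nrdc-/-WT v.s. Nrdc-/- iMEF, 11 members were higher beside 20.5% of all genes, 1 was lower beside 22.7%, and 3 were not called. In Nrdc-/-WT v.s. Nrdc+/+ iMEF, 11 members were higher beside 29.9% of all genes, 3 were lower beside 30.6%, and 1 was not called. Because the filter favoured genes high in some line, these counts are a description of the members that passed.

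The median log2 fold change of the 15 members was 0.14 in Nrdc-/- v.s. Nrdc+/+ iMEF, beside 0.01 over all genes tested. It was 0.94 in Nrdc-/-WT v.s. Nrdc-/- iMEF, beside -0.02 over all genes, and 1.04 in Nrdc-/-WT v.s. Nrdc+/+ iMEF, beside -0.02. The 2 libraries of each line did not overlap for 8, 13 and 15 of the 15 members in these comparisons, where 86.4%, 81.5% and 86.4% of all genes did not. Every pair of comparisons shares the libraries of 1 line, so the values below are given side by side and not as independent results.

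**Figure D2:**
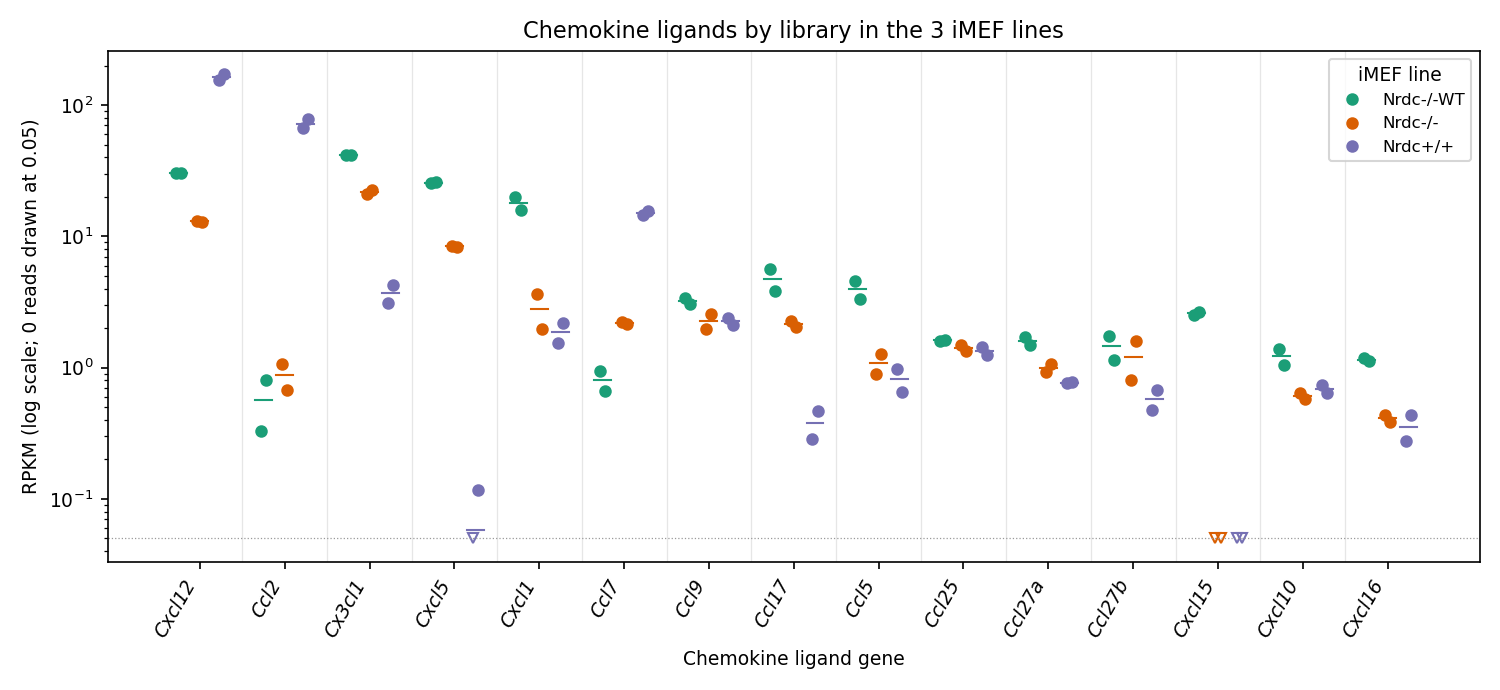
RPKM of the 15 chemokine ligands tested (log axis), with 1 point per library, a bar at the mean of each line, and open triangles at 0.05 for libraries with 0 reads. Cxcl12, Ccl2 and Ccl7 are highest in Nrdc+/+ iMEF, and the other members are highest in Nrdc-/-WT iMEF, although Ccl25 and Ccl27b differ little between Nrdc-/-WT and Nrdc-/- iMEF.

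Cxcl12, the ligand of Cxcr4 and of the scavenger receptor Cxcr7, was the most abundant chemokine mRNA of Nrdc+/+ iMEF. It was at 30.2 and 30.2 RPKM in Nrdc-/-WT iMEF, 13.2 and 12.9 RPKM in Nrdc-/- iMEF, and 156 and 173 RPKM in Nrdc+/+ iMEF. The 3 lines were separated with no overlap, and Nrdc-/-WT iMEF stood between the others. Cxcl12 was 12.6-fold lower in Nrdc-/- than in Nrdc+/+ iMEF (log2 fold change -3.63 ± 0.07, SE, limma adjusted p = 2.7e-09). It was 2.32-fold higher in Nrdc-/-WT than in Nrdc-/- iMEF (1.20 ± 0.07, limma adjusted p = 3.11e-06) and still 5.45-fold lower than in Nrdc+/+ iMEF (-2.43 ± 0.07, limma adjusted p = 2.79e-08). Cxcl12 spans positions 117118553 to 117131385 of chromosome 6 in mm9, the build of the deposited table. Of 65 other genes tested within 5 Mb, 31 were called higher and 7 lower in Nrdc-/- v.s. Nrdc+/+ iMEF (median 0.26). On all of chromosome 6, 236 of 543 were called higher and 100 lower, beside 32.0% and 30.2% of all genes tested.

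Ccl2 and Ccl7, monocyte attractants that act on Ccr2, start 10.1 kb apart on chromosome 11 and were both highest in Nrdc+/+ iMEF. Ccl2 was at 0.33 and 0.80 RPKM in Nrdc-/-WT iMEF (8 and 17 reads), 1.07 and 0.68 RPKM in Nrdc-/- iMEF (21 and 14 reads), and 66.5 and 78.0 RPKM in Nrdc+/+ iMEF (1542 and 1833 reads). Ccl2 was thus nearly silent in both lines of Nrdc-/- origin, and it was 82.8-fold lower in Nrdc-/- than in Nrdc+/+ iMEF (log2 fold change -6.03 ± 0.27, SE, limma adjusted p = 2.97e-07). Nrdc-/-WT iMEF overlapped Nrdc-/- iMEF (-0.50 ± 0.27, limma adjusted p = 0.146, 95% interval -1.13 to 0.12). Without replicate 2 of Nrdc-/-WT iMEF, Ccl2 was called lower there (-0.93, limma adjusted p = 0.0156), while over the alternatives tried the adjusted p ran between 0.0156 and 0.808.

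Ccl7 was lowest in Nrdc-/-WT iMEF. It was at 0.94 and 0.67 RPKM in Nrdc-/-WT iMEF (16 and 10 reads), 2.24 and 2.13 RPKM in Nrdc-/- iMEF (31 and 31 reads), and 14.6 and 15.5 RPKM in Nrdc+/+ iMEF (238 and 257 reads). All lines were apart. Ccl7 fell by 2.65 on the log2 scale in Nrdc-/- v.s. Nrdc+/+ iMEF (SE 0.14, limma adjusted p = 6.62e-07), and by a further 1.22 in Nrdc-/-WT v.s. Nrdc-/- iMEF (SE 0.14, limma adjusted p = 0.000136). Their neighbours Ccl11, Ccl12, Ccl8 and Ccl1, which lie with them in a stretch of 270 kb, had at most 1 read in all 6 libraries. Of 95 other genes tested within 5 Mb of Ccl2, 20 were called higher and 22 lower in Nrdc-/- v.s. Nrdc+/+ iMEF (median -0.12). Over all genes tested, 32.0% were called higher and 30.2% lower. The endothelial gene Kdr, with 1 and 0 reads in Nrdc-/-WT iMEF, 0 and 0 reads in Nrdc-/- iMEF, and 232 and 187 reads in Nrdc+/+ iMEF, was highest in Nrdc+/+ iMEF like Ccl2, Ccl7 and Cxcl12. Pecam1, Cdh5, Tek, Tie1 and Vwf, the rest of the endothelial list, had at most 12 reads in a library. Summed over Nrdc-/-WT, Nrdc-/- and Nrdc+/+ iMEF in this order, Pecam1 had 12, 8 and 3 reads and Vwf 6, 18 and 5. Cdh5 had 12, 3 and 12 reads, Tek 0, 0 and 5, and Tie1 0 in each. The part of Kdr in these differences was not tested.

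**Figure D3:**
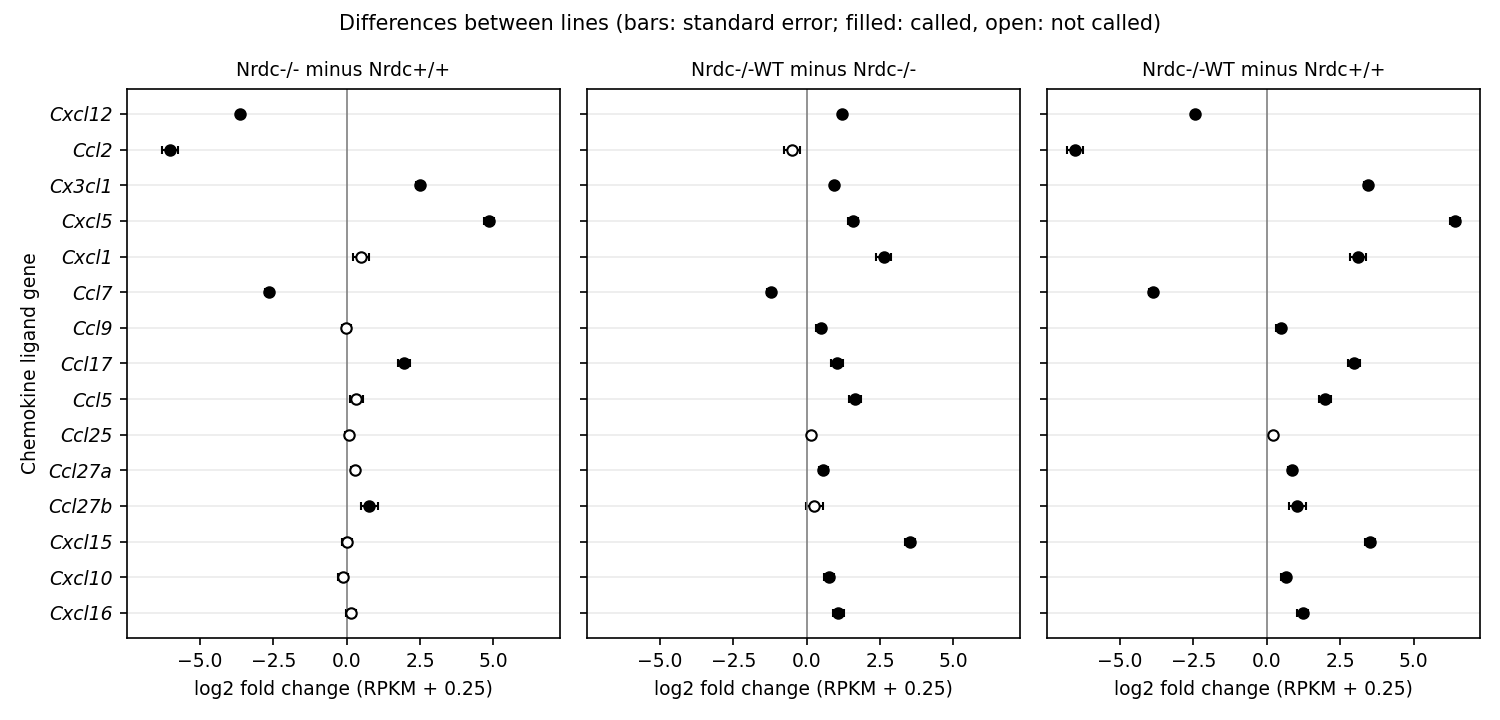
Log2 fold changes of the 15 chemokine ligands tested on the log2(RPKM + 0.25) scale in each of the 3 comparisons (points, with bars for the standard error), filled where called and open where not. Ccl2, Ccl7 and Cxcl12 lie left of 0 in Nrdc-/- v.s. Nrdc+/+ iMEF, and in Nrdc-/-WT v.s. Nrdc-/- iMEF only Ccl7 is called to the left while 11 members are called to the right.

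The neutrophil-attracting CXC ligands lie together on chromosome 5, in the order Cxcl5, Cxcl3, Cxcl15, Cxcl1 and Cxcl2 over 147 kb (91188325 to 91334935 in mm9), and each tested one was highest in Nrdc-/-WT iMEF. Cxcl5, a Cxcr2 ligand, was at 25.5 and 25.9 RPKM in Nrdc-/-WT iMEF (899 and 799 reads), 8.49 and 8.33 RPKM in Nrdc-/- iMEF (243 and 250 reads), and 0 and 0.12 RPKM in Nrdc+/+ iMEF (0 and 4 reads). Cxcl5 was therefore expressed in both lines of Nrdc-/- origin and almost undetected in Nrdc+/+ iMEF. Scaled to depth, the summed reads of Nrdc-/- iMEF were 143 times those of Nrdc+/+ iMEF (95% counting interval 55.4 to 526). Those of Nrdc-/-WT iMEF were 436 times as many (170 to 1600), and both intervals cover counting error only. The log2 fold change was 4.84 ± 0.17 in Nrdc-/- v.s. Nrdc+/+ iMEF (limma adjusted p = 6.71e-08), a value that ran between 3.15 and 7.57 over the alternatives, and 1.58 ± 0.17 in Nrdc-/-WT v.s. Nrdc-/- iMEF (limma adjusted p = 9.7e-05). On the deposited values, which keep a floor under unread genes, the call in Nrdc-/-WT v.s. Nrdc-/- iMEF was lost (1.61, limma adjusted p = 0.051, the highest of the alternatives tried, the lowest being 4.55e-10).

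Cxcl1, a Cxcr2 ligand first known as KC, was at 19.9 and 16.0 RPKM in Nrdc-/-WT iMEF (404 and 284 reads), 3.64 and 1.97 RPKM in Nrdc-/- iMEF (60 and 34 reads), and 1.55 and 2.19 RPKM in Nrdc+/+ iMEF (30 and 43 reads). Nrdc-/-WT iMEF were apart from both other lines, which overlapped each other. Cxcl1 was 6.40-fold higher in Nrdc-/-WT than in Nrdc-/- iMEF (log2 fold change 2.62 ± 0.26, SE, limma adjusted p = 6.81e-05). In Nrdc-/- v.s. Nrdc+/+ iMEF it was not called (0.49 ± 0.26, limma adjusted p = 0.118), and it was called without replicate 2 of Nrdc-/- iMEF (0.89, limma adjusted p = 0.0145, against 0.0145 to 0.756 over the alternatives).

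Cxcl15, a chemokine known from the lung epithelium of mice, was read in Nrdc-/-WT iMEF alone. It had 115 and 106 reads there, or 2.54 and 2.67 RPKM, and 0 reads in all libraries of Nrdc-/- and Nrdc+/+ iMEF. Counting 3 reads over a line as the limit that 0 reads allow, Cxcl15 was at least 65.3-fold higher than in Nrdc-/- iMEF and at least 75.6-fold higher than in Nrdc+/+ iMEF. It passed the filter through Nrdc-/-WT iMEF alone. Cxcl3 and Cxcl2, the closest relatives of Cxcl1, had 2 reads and 1 read, all in Nrdc-/-WT iMEF. The cluster thus held strongly and weakly read genes side by side in the same line. Of 8 other genes tested within 1 Mb of Cxcl1, 2 were called higher and 1 lower in Nrdc-/-WT v.s. Nrdc-/- iMEF (median 0.18). Over all genes tested, 20.5% were called higher and 22.7% lower.

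Promoter sequences of this cluster are shown because Cxcl1, Cxcl2 and Cxcl3 carry the same match to the NF-kB binding motif while only Cxcl1 was well read. The 250 bases before the start were taken from RefSeq on GRCm38.p6, a later build than that of the table, for 26 of the 37 member symbols and 10 of the 15 tested. The promoters of Ccl2, Ccl5, Ccl7, Cxcl5 and Cxcl16 were not searched. They were searched on both strands for the kappaB motif, for the interferon-stimulated response element GAAANNGAAA and for TATAAA, and overlapping matches were joined. The last 120 bases before the start are given 5′ to 3′ on the strand of the gene, all on the plus strand of chromosome 5, at chr5:90891125-90891244 for Cxcl1, chr5:90903779-90903898 for Cxcl2, chr5:90785981-90786100 for Cxcl3 and chr5:90794414-90794533 for Cxcl15. Capitals mark the motif matches.
Cxcl1: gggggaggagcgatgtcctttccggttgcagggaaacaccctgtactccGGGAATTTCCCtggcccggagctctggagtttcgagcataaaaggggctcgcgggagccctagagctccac
Cxcl2: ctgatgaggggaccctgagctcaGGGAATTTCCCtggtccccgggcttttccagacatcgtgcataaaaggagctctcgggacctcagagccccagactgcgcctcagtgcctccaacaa
Cxcl3: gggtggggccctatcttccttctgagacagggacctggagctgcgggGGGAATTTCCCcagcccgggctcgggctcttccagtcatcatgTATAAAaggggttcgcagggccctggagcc
Cxcl15: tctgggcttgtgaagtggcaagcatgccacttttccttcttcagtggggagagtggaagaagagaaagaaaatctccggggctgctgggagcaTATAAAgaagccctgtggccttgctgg

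The kappaB match of 11 letters is identical in Cxcl1, Cxcl2 and Cxcl3 and begins 71, 97 and 73 bases before their starts. No such match was found in the 250 bases of Cxcl15, which holds TATAAA 27 bases before its start, as Cxcl3 does at 30 bases. Over 32851 promoters of the same length, 7.25% held a kappaB match, 2.98% the response element and 12.4% TATAAA. Among the 32 promoters of the 26 member genes, 7 held a kappaB match, namely those of Ccl1, Ccl9, Ccl20, Cxcl1, Cxcl2, Cxcl3 and Cxcl10. The response element was held by 3 and TATAAA by 10 of these promoters. Of the genes with a kappaB match, Ccl9, Cxcl1 and Cxcl10 passed the filter. A match is a description of the letters and not of binding.

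Cx3cl1 and Cxcl16 are the chemokines made as membrane-anchored proteins, and both were highest in Nrdc-/-WT iMEF. Cx3cl1, or fractalkine, which binds Cx3cr1 on monocytes and microglia, was at 41.7 and 42.0 RPKM in Nrdc-/-WT iMEF, 20.9 and 22.4 RPKM in Nrdc-/- iMEF, and 3.10 and 4.28 RPKM in Nrdc+/+ iMEF. The 3 lines did not overlap. Cx3cl1 was 5.87-fold higher in Nrdc-/- than in Nrdc+/+ iMEF (log2 fold change 2.49 ± 0.13, SE, limma adjusted p = 6.58e-07) and 1.93-fold higher in Nrdc-/-WT than in Nrdc-/- iMEF (0.94 ± 0.13, limma adjusted p = 0.000402). Cxcl16, the ligand of Cxcr6, was at 1.18 and 1.12 RPKM in Nrdc-/-WT iMEF, 0.44 and 0.38 RPKM in Nrdc-/- iMEF, and 0.28 and 0.43 RPKM in Nrdc+/+ iMEF. It was 2.79-fold higher in Nrdc-/-WT than in Nrdc-/- iMEF (1.08 ± 0.18, limma adjusted p = 0.00114), and the difference between Nrdc-/- and Nrdc+/+ iMEF was not called (0.14 ± 0.18, limma adjusted p = 0.495). Of the exon bases of Cxcl16, 18.3% are shared with Zmynd15 on the other strand, whose reads could not be told apart from its own if strand was not used in counting.

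Ccl17, a ligand of Ccr4 on T cells, starts 38.4 kb from Cx3cl1 on chromosome 8 and followed the same order of lines. It was at 5.67 and 3.87 RPKM in Nrdc-/-WT iMEF (62 and 37 reads), 2.25 and 2.04 RPKM in Nrdc-/- iMEF (20 and 19 reads), and 0.29 and 0.47 RPKM in Nrdc+/+ iMEF (3 and 5 reads). It was higher in Nrdc-/- than in Nrdc+/+ iMEF (log2 fold change 1.94 ± 0.21, SE, limma adjusted p = 4.93e-05) and higher again in Nrdc-/-WT than in Nrdc-/- iMEF (1.04 ± 0.21, limma adjusted p = 0.00299). Ccl22, another Ccr4 ligand, starts 26.4 kb before Cx3cl1 and had 0 reads in all 6 libraries.

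The genes around Cx3cl1 and Ccl17 moved with them in Nrdc-/- v.s. Nrdc+/+ iMEF. Of 33 other genes tested within 1 Mb of Cx3cl1, 32 were called higher and 0 lower, with a median log2 fold change of 1.49 and quartiles of 1.21 and 1.90. Within 5 Mb, 45 of 49 were called higher and 2 lower, while over all 641 other genes tested on chromosome 8 the median was 0.02. Among the 1 Mb windows around the other members tested, the highest median was 0.54, around the chromosome 5 cluster. In Nrdc-/-WT v.s. Nrdc-/- iMEF, 2 of the same 49 genes were called higher and 17 lower (median -0.22). Over all genes tested, these shares were 20.5% and 22.7%. Cx3cl1 and Ccl17 were both called higher in that comparison. The windows were chosen after the values were seen, and whether the copy number or state of this region differs between the lines was not tested.

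**Figure D4:**
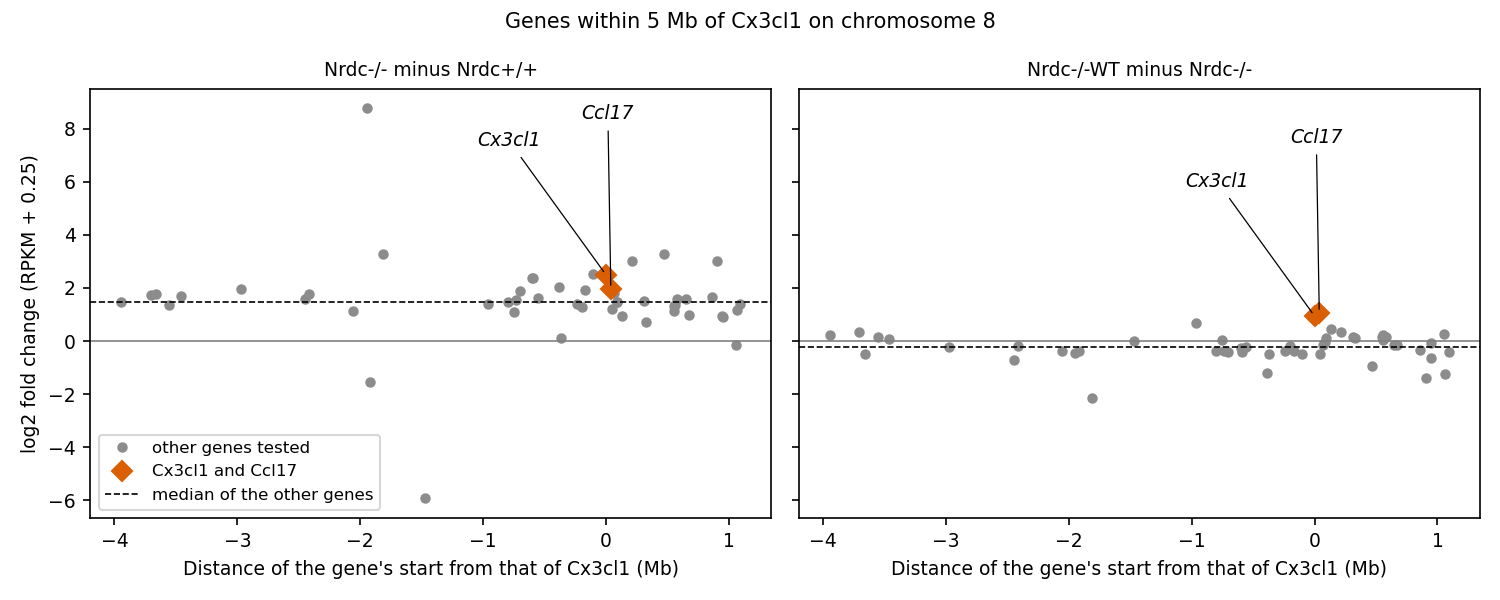
Log2 fold changes (log2(RPKM + 0.25) scale) of the genes tested within 5 Mb of Cx3cl1 against the distance of their starts from that of Cx3cl1 (Mb), with grey points for other genes, diamonds for Cx3cl1 and Ccl17, and a dashed line at the median of the others. The other genes lie around 1.49 in Nrdc-/- v.s. Nrdc+/+ iMEF and around -0.22 in Nrdc-/-WT v.s. Nrdc-/- iMEF, where Cx3cl1 and Ccl17 lie at 0.94 and 1.04.

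The promoters of these genes and of Cxcl12 are shown as those of ligands that were called in each of the 3 comparisons and have an entry in the table. Cxcl5 and Ccl7 were also called in each. The 120 bases before the start lie on the plus strand of GRCm38.p6 at chr8:94772060-94772179 for Cx3cl1, chr8:94810333-94810452 for Ccl17 and chr6:117168415-117168534 for Cxcl12, and capitals again mark matches.
Cx3cl1: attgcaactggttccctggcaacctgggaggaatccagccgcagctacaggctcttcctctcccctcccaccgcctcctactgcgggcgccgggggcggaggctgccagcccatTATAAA
Ccl17: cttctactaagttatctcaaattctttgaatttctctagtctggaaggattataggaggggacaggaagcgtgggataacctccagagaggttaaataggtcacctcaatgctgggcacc
Cxcl12: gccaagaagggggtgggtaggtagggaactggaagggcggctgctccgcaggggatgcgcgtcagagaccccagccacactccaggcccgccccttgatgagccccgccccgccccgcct

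Cx3cl1 holds TATAAA in the last 6 bases before its start, and none of the 3 motifs was found in the 250 bases of Ccl17 or Cxcl12.

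Cxcl10, an interferon-inducible ligand of Cxcr3, was at 1.39 and 1.06 RPKM in Nrdc-/-WT iMEF (45 and 30 reads), 0.65 and 0.58 RPKM in Nrdc-/- iMEF (17 and 16 reads), and 0.74 and 0.64 RPKM in Nrdc+/+ iMEF (23 and 20 reads). Nrdc-/-WT iMEF were apart from the others, which overlapped. Cxcl10 was 1.99-fold higher in Nrdc-/-WT than in Nrdc-/- iMEF (log2 fold change 0.76 ± 0.17, SE, limma adjusted p = 0.0049). It was also called higher than in Nrdc+/+ iMEF (0.64 ± 0.17, limma adjusted p = 0.00828). That call was lost without replicate 1 of Nrdc-/-WT iMEF (0.48) and with a fold of at least 2. Quantile normalization (0.32, limma adjusted p = 0.116) and voom (0.81, limma adjusted p = 0.0566) also lost it. Over the alternatives, the limma adjusted p ran between 0.00417 and 0.116. Of the exon bases of Cxcl10, 8.75% are shared with Art3 on the other strand. Cxcl9, its neighbour and another Cxcr3 ligand, had at most 4 reads in a library. The 250 bases before the Cxcl10 start, at chr5:92348890-92349139 on the minus strand of GRCm38.p6, are shown because they hold both the response element, 213 bases before the start, and kappaB matches 159 and 104 bases before it.
Cxcl10: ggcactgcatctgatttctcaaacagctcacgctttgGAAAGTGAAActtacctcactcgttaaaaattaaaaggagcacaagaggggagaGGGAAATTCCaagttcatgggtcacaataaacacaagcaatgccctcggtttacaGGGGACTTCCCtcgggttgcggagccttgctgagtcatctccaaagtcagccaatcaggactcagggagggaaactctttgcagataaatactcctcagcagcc

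Ccl5 and Ccl9, ligands of Ccr1 that attract T cells, monocytes and other myeloid cells, were also highest in Nrdc-/-WT iMEF. Ccl5 was at 4.55 and 3.35 RPKM in Nrdc-/-WT iMEF (93 and 60 reads), 0.90 and 1.26 RPKM in Nrdc-/- iMEF (15 and 22 reads), and 0.97 and 0.66 RPKM in Nrdc+/+ iMEF (19 and 13 reads). It was 3.64-fold higher in Nrdc-/-WT than in Nrdc-/- iMEF (log2 fold change 1.65 ± 0.21, SE, limma adjusted p = 0.000305), whereas Nrdc-/- and Nrdc+/+ iMEF overlapped (0.33 ± 0.21, limma adjusted p = 0.197). Ccl9 differed less, with 3.39 and 3.06 RPKM in Nrdc-/-WT iMEF, 1.96 and 2.57 RPKM in Nrdc-/- iMEF, and 2.40 and 2.12 RPKM in Nrdc+/+ iMEF. Its call in Nrdc-/-WT v.s. Nrdc-/- iMEF (0.48 ± 0.15, limma adjusted p = 0.0229) was lost without replicate 1 of Nrdc-/- iMEF (0.30, limma adjusted p = 0.146), without replicate 1 of Nrdc-/-WT iMEF (0.41, adjusted p = 0.129) and without replicate 2 of it (0.55, adjusted p = 0.0599), with 0.0152 to 0.146 over the alternatives. Its call in Nrdc-/-WT v.s. Nrdc+/+ iMEF (0.47 ± 0.15, limma adjusted p = 0.0188) was lost without replicate 2 of Nrdc+/+ iMEF (0.39, adjusted p = 0.105) and without replicate 1 of Nrdc-/-WT iMEF (0.40, adjusted p = 0.111), with 0.0122 to 0.111 over the alternatives. Ccl6, Ccl3 and Ccl4 in the same stretch of chromosome 11 had at most 3 reads in a library.

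Among the lymphoid, skin and mucosal CC chemokines, Ccl25, Ccl27a and Ccl27b were read at low levels in every line. Ccl25, a thymic and intestinal chemokine that binds Ccr9, was at 1.60 and 1.63 RPKM in Nrdc-/-WT iMEF, 1.49 and 1.34 RPKM in Nrdc-/- iMEF, and 1.44 and 1.25 RPKM in Nrdc+/+ iMEF. It was called in no comparison, with 95% intervals of the log2 fold change of -0.24 to 0.37 in Nrdc-/- v.s. Nrdc+/+ iMEF, -0.14 to 0.46 in Nrdc-/-WT v.s. Nrdc-/- iMEF and -0.08 to 0.53 in Nrdc-/-WT v.s. Nrdc+/+ iMEF. Its other listed gene shares 1109 bases with it and had 0 reads, and how reads in the shared bases were counted is not stated.

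Ccl27a and Ccl27b are near-identical copies of the gene for a skin chemokine that binds Ccr10, and the division of reads between them is uncertain. Ccl27a was at 1.72 and 1.49 RPKM in Nrdc-/-WT iMEF, 0.92 and 1.07 RPKM in Nrdc-/- iMEF, and 0.76 and 0.77 RPKM in Nrdc+/+ iMEF. It was called higher in Nrdc-/-WT than in Nrdc-/- iMEF (log2 fold change 0.57 ± 0.14, SE, limma adjusted p = 0.00908), and the call was lost without replicate 1 of Nrdc-/- iMEF (0.49, limma adjusted p = 0.0532) or of Nrdc-/-WT iMEF (0.48, adjusted p = 0.0652), with 0.00317 to 0.0652 over the alternatives. Of 23 other genes tested within 1 Mb of Ccl27a, 15 were called higher and 0 lower in the same comparison (median 0.53). On all of chromosome 4, 299 of the 707 genes tested were called higher and 112 lower, beside 20.5% and 22.7% of all genes. The cause was not tested. Ccl27b was at 1.76 and 1.15 RPKM in Nrdc-/-WT iMEF (35 and 20 reads), 0.80 and 1.59 RPKM in Nrdc-/- iMEF (13 and 27 reads), and 0.47 and 0.67 RPKM in Nrdc+/+ iMEF (9 and 13 reads), and 42.9% of its exon bases are shared with Il11ra2 on the other strand. Its call in Nrdc-/- v.s. Nrdc+/+ iMEF (0.77 ± 0.29, limma adjusted p = 0.0388) was lost without replicate 1 of Nrdc+/+ iMEF (0.59, limma adjusted p = 0.209), without replicate 2 of it (0.95, adjusted p = 0.0688) and without replicate 2 of Nrdc-/- iMEF (0.37, adjusted p = 0.283), with 0.0115 to 0.283 over the alternatives. Its call in Nrdc-/-WT v.s. Nrdc+/+ iMEF (1.03 ± 0.29, limma adjusted p = 0.0112) was lost without replicate 1 of Nrdc+/+ iMEF (0.86, adjusted p = 0.0915) and without replicate 1 of Nrdc-/-WT iMEF (0.77, adjusted p = 0.0921), with 0.00217 to 0.0921 over the alternatives.

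The remaining 23 members were below the level needed for testing. Of these, 9 had between 1 and 4 reads in their highest library, namely Ccl3, Ccl4, Ccl6, Ccl11, Ccl20, Cxcl2, Cxcl3, Cxcl9 and Cxcl17. The highest mean among them was 0.042 RPKM, compared with 0.64 RPKM for the lowest member tested. The other 14 had 0 reads in all 6 libraries, namely Ccl1, Ccl8, Ccl12, Ccl19, Ccl21a, Ccl21b, Ccl21c, Ccl22, Ccl24, Ccl26, the second Ccl25 gene, Cxcl13, Cxcl14 and Xcl1. Among these are Ccl19, the Ccl21 genes and Cxcl13, which organize lymphoid tissue. At the depth of each library, a count of 0 allows up to 3 reads, so low expression of these genes cannot be told apart from none.

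The receptors that would receive these ligands were mostly below the level needed for testing in the same cells. The receptor, pathway and enzyme lists were drawn up with earlier results of these data known. Of 18 chemokine receptors, Cxcr6 was the only one tested, and 5 had 0 reads in all libraries. Cxcr6, the receptor of Cxcl16, had 71 and 57 reads in Nrdc-/-WT iMEF, 2 and 5 reads in Nrdc-/- iMEF, and 0 reads in both libraries of Nrdc+/+ iMEF. It passed the filter through Nrdc-/-WT iMEF alone. Cxcr2, Cxcr4 and Ccr2, the receptors of the neutrophil attractants, of Cxcl12 and of Ccl2, had at most 3 reads in a library. Of 5 atypical receptors, which take up chemokines without signalling through G proteins, Cxcr7, now named Ackr3, was tested. Cxcr7 was at 19.5 and 17.5 RPKM in Nrdc-/-WT iMEF, 43.3 and 43.4 RPKM in Nrdc-/- iMEF, and 1.23 and 1.42 RPKM in Nrdc+/+ iMEF. The order of the lines was the reverse of that of its ligand Cxcl12, with a log2 fold change of 4.79 ± 0.09 in Nrdc-/- v.s. Nrdc+/+ iMEF (limma adjusted p = 3.32e-09) and of -1.22 ± 0.09 in Nrdc-/-WT v.s. Nrdc-/- iMEF (limma adjusted p = 1.37e-05).

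The genes of NF-kB and its regulators were all tested. Of these 18 genes, 4 were called higher and 6 lower in Nrdc-/- v.s. Nrdc+/+ iMEF (median -0.25). The shares over all genes tested were 32.0% and 30.2%. In Nrdc-/-WT v.s. Nrdc-/- iMEF, 9 were called higher and 2 lower (median 0.36), beside such shares of 20.5% and 22.7%. In Nrdc-/-WT v.s. Nrdc+/+ iMEF, 6 were called higher and 3 lower (median 0.15), beside 29.9% and 30.6%. Nfkb1, which encodes the p50 subunit, averaged 48.0 RPKM in Nrdc-/-WT iMEF, 22.7 RPKM in Nrdc-/- iMEF and 31.7 RPKM in Nrdc+/+ iMEF. In Nrdc-/-WT v.s. Nrdc-/- iMEF, Nfkb1 rose by 1.07, Nfkbiz, a coactivator of NF-kB, by 1.16, and Tnip1, an inhibitor of the pathway, by 1.19 on the log2 scale. Rela, which encodes the p65 subunit, was not called there (0.30), and Chuk, a kinase that activates the pathway, and Nfkbib, an inhibitor, were called lower (-0.67 and -0.72). Traf3, an inhibitor of the alternative pathway, was not called there either (-0.17). It was called lower in Nrdc-/- v.s. Nrdc+/+ iMEF (-1.01) and in Nrdc-/-WT v.s. Nrdc+/+ iMEF (-1.18). Rela, Chuk and Nfkbib were named after their values were seen.

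Of 14 cytokines that fibroblasts can make, 5 were tested. All 5 were called higher in Nrdc-/-WT v.s. Nrdc-/- iMEF (median 1.24), beside 20.5% of all genes tested. In Nrdc-/- v.s. Nrdc+/+ iMEF, 3 were called higher and 2 lower, beside 32.0% and 30.2% of all genes. Because the filter favoured genes high in some line, these counts only describe the cytokines that passed. Il33, named after its values were seen, averaged 2.39 RPKM in Nrdc-/-WT iMEF, 0.47 RPKM in Nrdc-/- iMEF and 0.22 RPKM in Nrdc+/+ iMEF. It passed the filter through Nrdc-/-WT iMEF alone. Il18, a cytokine released by inflammasomes, averaged 35.8 RPKM in Nrdc-/-WT iMEF, 16.9 RPKM in Nrdc-/- iMEF and 1.56 RPKM in Nrdc+/+ iMEF. Il15, a growth factor of lymphocytes, averaged 9.60 RPKM in Nrdc-/-WT iMEF, 2.04 RPKM in Nrdc-/- iMEF and 0.28 RPKM in Nrdc+/+ iMEF. Both had the order of lines seen for Cx3cl1 and Cxcl5. Csf1, the growth factor of macrophages, averaged 36.1 RPKM in Nrdc-/-WT iMEF, 24.2 RPKM in Nrdc-/- iMEF and 90.9 RPKM in Nrdc+/+ iMEF. Lif, a cytokine of the Il6 family, averaged 0.69 RPKM in Nrdc-/-WT iMEF, 0.15 RPKM in Nrdc-/- iMEF and 1.90 RPKM in Nrdc+/+ iMEF. Csf1 and Lif were thus lowest in Nrdc-/- iMEF, as Cxcl12 was. Tnf, Il1a and Il1b, known inducers of Cxcl1 and Ccl2, had 0 reads in all 6 libraries.

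Of 14 IRF and STAT factors, 11 were tested. In Nrdc-/- v.s. Nrdc+/+ iMEF, 6 were called higher and 1 lower (median 0.62), beside 32.0% and 30.2% of all genes tested. In Nrdc-/-WT v.s. Nrdc-/- iMEF, 4 were called higher and 2 lower (median 0.08), beside 20.5% and 22.7% of all genes. Irf1, an activator of interferon-responsive genes, averaged 29.5 RPKM in Nrdc-/-WT iMEF, 18.7 RPKM in Nrdc-/- iMEF and 4.79 RPKM in Nrdc+/+ iMEF. Stat3, which acts downstream of the Il6 family, averaged 29.2 RPKM in Nrdc-/-WT iMEF, 17.1 RPKM in Nrdc-/- iMEF and 7.15 RPKM in Nrdc+/+ iMEF. Both followed the order of lines seen for Cx3cl1 and Cxcl5. Irf5 averaged 0.93 RPKM in Nrdc-/-WT iMEF, 1.21 RPKM in Nrdc-/- iMEF and 0.20 RPKM in Nrdc+/+ iMEF.

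**Figure D5:**
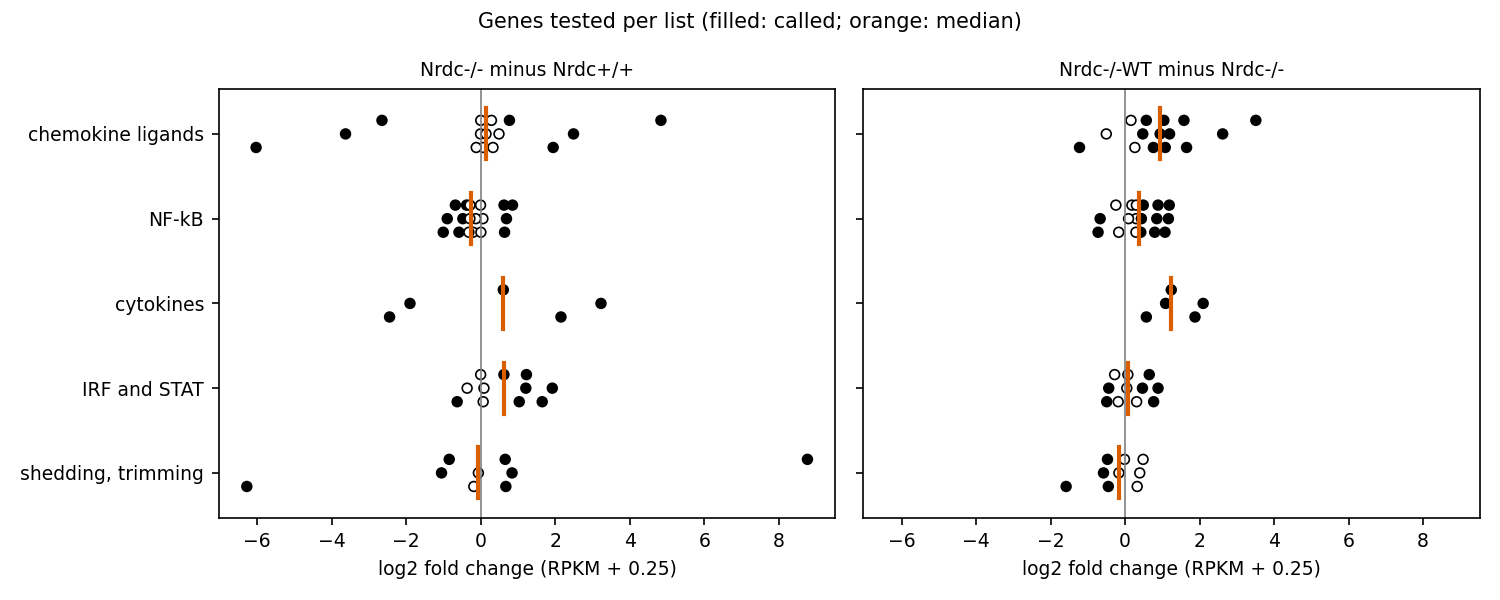
Log2 fold changes (log2(RPKM + 0.25) scale) of each gene tested in the chemokine ligands and in 4 related lists (points, filled where called), with the median of each list in orange. In Nrdc-/-WT v.s. Nrdc-/- iMEF the medians are 0.94 for the chemokine ligands, 0.36 for NF-kB genes, 1.24 for cytokines, 0.08 for IRF and STAT factors and -0.16 for shedding and trimming enzymes.

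Of 12 enzymes that shed or trim chemokines, 9 were tested. In Nrdc-/- v.s. Nrdc+/+ iMEF, 4 were called higher and 3 lower (median -0.06), beside 32.0% and 30.2% of all genes tested. In Nrdc-/-WT v.s. Nrdc-/- iMEF, 0 were called higher and 4 lower (median -0.16), beside 20.5% and 22.7% of all genes. Mmp2, which cleaves Ccl7 and Cxcl12, averaged 325 RPKM in Nrdc-/-WT iMEF, 450 RPKM in Nrdc-/- iMEF and 0.79 RPKM in Nrdc+/+ iMEF, and its gene starts 1.94 Mb before Cx3cl1. Mmp14, which activates Mmp2, averaged 101 RPKM in Nrdc-/-WT iMEF, 304 RPKM in Nrdc-/- iMEF and 190 RPKM in Nrdc+/+ iMEF. Both cathepsin genes were highest in Nrdc+/+ iMEF. Ctsk averaged 0.35 RPKM in Nrdc-/-WT iMEF, 0.19 RPKM in Nrdc-/- iMEF and 33.8 RPKM in Nrdc+/+ iMEF, and Ctsl averaged 165 RPKM in Nrdc-/-WT iMEF, 132 RPKM in Nrdc-/- iMEF and 273 RPKM in Nrdc+/+ iMEF. Adam10 and Adam17 were named after their values were seen because they shed Cx3cl1 and Cxcl16. Adam10 averaged 32.3 RPKM in Nrdc-/-WT iMEF, 36.2 RPKM in Nrdc-/- iMEF and 37.9 RPKM in Nrdc+/+ iMEF and was called in no comparison. Adam17 averaged 8.91 RPKM in Nrdc-/-WT iMEF, 12.3 RPKM in Nrdc-/- iMEF and 14.0 RPKM in Nrdc+/+ iMEF, and it fell by 0.45 on the log2 scale in Nrdc-/-WT v.s. Nrdc-/- iMEF (limma adjusted p = 0.0015).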

How the data were processed

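RNA-seq was analysed in 6 libraries, 2 for each of the Nrdc-/-WT, Nrdc-/- and Nrdc+/+ iMEF lines, grouped by the sample labels. According to the methods and labels, the authors aligned Ion Proton reads to mm9 with STAR and Bowtie2, counted reads with featureCounts of Subread, without stating whether strand was used, and calculated RPKM with edgeR. The sources used here give no tool versions. The values were deposited by the authors as log2 RPKM, in which a small floor had been added for unread genes. The floor was removed, which gave whole reads for 100% of low values within 0.05 reads and RPKM for the analysis. The plan had assumed RPKM values, and the same test was kept.

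The 11598 genes that averaged 0.5 RPKM or more entered 1 fit of 3 groups on log2(RPKM + 0.25) with limma 3.58.1 in R 4.3.3, with Benjamini-Hochberg adjustment. Calls required an adjusted p below 0.05 with a 1.3-fold difference or more. Fold changes on this scale understate those of genes with low values. Replicates were not duplicates of 1 library (chi-square per gene of 4.02 to 8.59, beyond sampling noise), and scripts were tested on simulated data. All members with a mean over the filter were named, and list genes by the largest change, up to 4 per list, of which 1 is not reported here. The members and lists were chosen with earlier results of these data known. Alternatives covered the pseudocount, filter, scaling, voom, fold and p thresholds, the replicate block and leaving out each library.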

Additional observations from a re-analysis of the deposited data

How the results depend on the processing

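The counts of chemokine ligands called (7 in Nrdc-/- v.s. Nrdc+/+ iMEF, 12 in Nrdc-/-WT v.s. Nrdc-/- iMEF and 14 in Nrdc-/-WT v.s. Nrdc+/+ iMEF) stayed within 1.5 times under each alternative run. Leaving out 1 library at a time gave 6 to 7, 10 to 12 and 11 to 14. Over all genes, a fold of at least 2 left 2906, 1398 and 2726 genes called in these comparisons, against 7206, 5008 and 7009 with a fold of at least 1.3. Of 861 values under 20 alternatives, 2 single calls were gained and 38 were lost, of which 14 concerned Ccl9, 13 Ccl27b, 5 Cxcl10, 4 Ccl27a and 1 each Cx3cl1 and Cxcl5, and 8 uncalled differences changed direction. Under quantile normalization these were Ccl25 (-0.074) and Cxcl16 (-0.23) in Nrdc-/- v.s. Nrdc+/+ iMEF and Ccl25 (-0.013) in Nrdc-/-WT v.s. Nrdc+/+ iMEF. With 1 library left out they were Ccl9 (-0.18 to 0.17), Cxcl16 (-0.047 to 0.33) and Ccl25 (-0.016 to 0.15) in Nrdc-/- v.s. Nrdc+/+ iMEF and Ccl27b (-0.14 to 0.67) in Nrdc-/-WT v.s. Nrdc-/- iMEF. The cause was not tested. Leaving out a library left 1 line with a single sample, assumed to vary like the others.

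No pairing by replicate number was seen, as the deviations of same-numbered libraries correlated at -0.03, -0.10 and 0.01 across genes. These values cannot tell whether same-numbered libraries were handled together. With the replicate number as a block, the counts of ligands called were again 7, 12 and 14, and a crossed pairing of Nrdc-/-WT with Nrdc+/+ iMEF, added after seeing the data, gave 14. With 2 libraries per line, genes of few reads such as Ccl17, Ccl27b and Cxcl10 are limited by depth.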
